A study of Mus musculus with 6 samples.

Results

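The genes studied here encode the subunits of the proteasome, measured in primordial germ cells (PGCs) sorted from E13.5 male mouse embryos. They were taken as the rows whose mouse symbol begins with *Psm*, one of the letters a to e and a number, leaving out pseudogenes and the immunoproteasome genes *Psmb8*, *Psmb9* and *Psmb10*. This gave 40 genes of 24479 rows. There were 14 members of the core particle (*Psma* and *Psmb*), 20 grouped with the regulatory particle (*Psmc* and *Psmd*) and 4 activators (*Psme*). The 20 include *Psmd5*, *Psmd9* and *Psmd10*, which encode assembly chaperones and not subunits of the finished particle. The pattern also took *Psmc3ip* and *Psme3ip1*, which encode proteins that bind a subunit and are not subunits themselves. *Psmb3* and *Psmb5*, which encode further subunits of the core particle, and *Psme2b*, a copy of *Psme2*, have no named row and were not analysed here.

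The mutant samples were 3 pools labelled Fancg-/- (strain label og2.fvb.fancg -/-), and the control samples were 3 pools labelled WT (og2.fvb.fancg +/+). *Fancg* encodes a member of the Fanconi anemia core complex, and its mutant allele holds a Pgk-hygromycin cassette. All embryos carried the OG2 reporter, an EGFP transgene under the *Oct3/4* distal enhancer, and EGFP was the basis of the sort. Each sample held 10000 cells from at least 5 embryos and its RNA was amplified and hybridised to 1 Affymetrix Mouse Gene array, so that p-values measure the spread between such pools.

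The proteasome degrades proteins that carry ubiquitin chains. Its core particle is a barrel of stacked rings, in which outer rings of alpha subunits gate the entry and inner rings of beta subunits hold the protease sites. The regulatory particle caps the barrel, binds ubiquitin chains, removes them and threads the unfolded protein inwards with a ring of ATPases. Activators of the *Psme* group cap the same barrel without ATPases. Male germ cells are known for their own versions of this machine, in which the alpha subunit of *Psma8* and the activator of *Psme4* act in spermatogenesis.

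Among the 4 activator genes were the member with the largest higher value in Fancg-/- PGCs, *Psme2*, and the only member with an unadjusted p under 0.05 that was lower, *Psme4*. Their promoter windows, with that of *Psme1*, the partner of *Psme2* on the same chromosome, are shown so that the regions upstream of these genes can be compared. Each window holds 250 bases before and 50 after the annotated start, from RefSeq on build GRCm38.p6, and reads 5′ to 3′ on the strand of the gene. Capitals mark a match to one of 3 motifs searched on both strands, none of which overlap in these windows.
Psme2 (chr14:55591052-55591351, minus strand): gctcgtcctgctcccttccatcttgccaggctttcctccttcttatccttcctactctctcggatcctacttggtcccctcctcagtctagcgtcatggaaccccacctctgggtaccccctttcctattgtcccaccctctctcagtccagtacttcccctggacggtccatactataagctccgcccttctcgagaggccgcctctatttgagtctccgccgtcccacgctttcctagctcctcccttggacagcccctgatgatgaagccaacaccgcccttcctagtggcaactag
Psme1 (chr14:55578244-55578543, plus strand): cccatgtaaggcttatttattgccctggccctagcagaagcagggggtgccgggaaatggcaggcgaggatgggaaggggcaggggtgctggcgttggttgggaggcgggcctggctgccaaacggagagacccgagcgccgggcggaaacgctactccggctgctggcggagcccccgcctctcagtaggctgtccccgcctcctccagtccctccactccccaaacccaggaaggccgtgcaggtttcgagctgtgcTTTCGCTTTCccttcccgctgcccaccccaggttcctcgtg
Psme4 (chr11:30771525-30771824, plus strand): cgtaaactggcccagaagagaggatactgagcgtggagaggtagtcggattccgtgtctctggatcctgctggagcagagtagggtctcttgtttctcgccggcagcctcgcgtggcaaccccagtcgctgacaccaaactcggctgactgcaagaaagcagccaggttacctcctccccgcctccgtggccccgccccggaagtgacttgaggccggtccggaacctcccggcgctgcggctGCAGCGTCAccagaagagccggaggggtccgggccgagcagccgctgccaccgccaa

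The capitals in *Psme1* are a match on the minus strand to the interferon-stimulated response element (GAAA, any 2 bases, GAAA), and those in *Psme4* are a match to TGACNNNGC, the letters of the antioxidant response element that the transcription factor NRF1 binds. The *Psme2* window shown had neither, nor CCAAT, the box bound by NF-Y. Windows were found for 33 of the 40 genes, 37 windows in all. TGACNNNGC was present in 5 of these 37 windows, against 12.4% of all 32851 windows in the table. CCAAT was present in 14 (37.8%), against 37.4%, and the interferon-stimulated element in 3 (8.11%), against 3.44%. A match is a run of letters and not a measured binding site. The 5 matches to TGACNNNGC are shown, with up to 8 bases on either side, since NRF1 is the factor known to raise all proteasome genes together when the proteasome is blocked.
Psmb6 (chr11:70525340-70525364): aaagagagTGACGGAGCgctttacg
Psmc6 (chr14:45329589-45329613): agccagtaGCTAAGTCAggcattgc
Psmd12 (chr11:107479278-107479297): tctGCTGTGTCAcatttgcc
Psmd9 (chr5:123228151-123228175): ctagccggTGACCCCGCccacttcc
Psme4 (chr11:30771760-30771784): ctgcggctGCAGCGTCAccagaaga

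These 5 genes had differences on both sides of 0 in the arrays. Their log2 differences, Fancg-/- minus WT, were -0.04 for *Psmb6*, 0.034 for *Psmc6*, -0.052 for *Psmd12*, -0.022 for *Psmd9* and -0.20 for *Psme4*.

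Values throughout are log2 signals that the authors normalised by RMA, and a difference is the mean of the Fancg-/- samples minus the mean of the WT samples. *Fancg* itself had 6.38, 6.65 and 6.87 in Fancg-/- samples and 6.07, 5.95 and 6.37 in WT samples (log2 difference 0.51, adjusted p = 0.27 from limma). The sources used here do not give where its probes lie against the deletion, so that this value does not check the labels, and each direction rests on them. The sorted cells carried germ cell RNA, since *Dazl* lay between 11.65 and 11.81 and *Dppa3* between 12.01 and 12.23 in the 6 samples, and 3 of 12 germ cell markers were higher in Fancg-/- samples at an unadjusted p under 0.05 (summed linear signal 13935 to 14351 in Fancg-/- and 14084 to 14216 in WT). Over all named rows, 6.23% were higher and 6.17% lower by that rule. Signal of markers of other gonadal cells differed between the groups. Of 8 measured fetal Leydig cell markers, 6 were lower in Fancg-/- samples at an unadjusted p under 0.05 (728 to 731 in Fancg-/- and 944 to 1097 in WT), as were 5 of 10 interstitial and stromal markers (716 to 806 in Fancg-/- and 808 to 987 in WT) and 1 of 10 Sertoli cell markers (922 to 1388 in Fancg-/- and 1222 to 2313 in WT). Of 10 endothelial markers 7 were higher (1207 to 1601 in Fancg-/- and 973 to 1264 in WT), and macrophage markers had 1 higher and 1 lower of 7 (167 to 187 in Fancg-/- and 185 to 205 in WT). The endothelial sums rest mainly on *Pecam1* (mean log2 signal 9.73), while the other markers of that list had means between 3.36 and 6.36. Which cells gave the *Pecam1* signal was not tested. Of 6 erythroid markers 1, *Alas2*, was lower, and their summed signal varied widely within the groups (77.7 to 1471 in Fancg-/- and 117 to 525 in WT), with the globin *Hbb-y* at 10.33 in Fancg-/- replicate 1 and 3.77 in Fancg-/- replicate 3. Fewer cells of a type and less RNA per cell cannot be told apart in such pools.

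Proteasome genes differed little between Fancg-/- and WT PGCs. None of the 40 members was called at an adjusted p under 0.05 by limma, nor was any of the 23837 named rows tested (0%). At an unadjusted p under 0.05, 2 members were higher in Fancg-/- PGCs (5% of 40, against 6.23% of all named rows), *Psme2* and *Psma8*, and 1 was lower (2.5%, against 6.17%), *Psme4*. Of named rows in the highest 25% by signal, where 37 of the 40 members lay, 8.51% were higher and 7.23% lower by the same rule, against 2 and 1 of the 37. In this fit the members' counts at an unadjusted p under 0.05 were thus near or under the background in either direction. The methods' t-test put 5 of the 40 members higher at an unadjusted p under 0.05, against 5.33% of all named rows, and limma with an intensity trend and a robust prior put 4 of 40 higher, against 6.72%. Both counts lay above the share of all named rows in their own fit. The share among rows in the highest 25% by signal was not taken for these fits. With neither test did any member pass the adjustment.

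The median log2 difference of the members was 0.046, beside 0.011 over all named rows, and their differences ran between -0.20 and 0.37. A log2 difference of 0.37 is a fold of 1.29. In size the median difference was 0.069, beside 0.11 over all named rows and 0.11 over those in the highest 25% by signal. Of the 40 members, 36 differed by less than 0.2 in either direction (90%), against 74.3% of all named rows. Differences above 0 were found in 29 members (72.5%), against 52.9% of all named rows. In 8 of the 40 members every Fancg-/- sample lay above every WT sample, a larger share than the 9.45% of all named rows. In 4 of the 40 every Fancg-/- sample lay below, near the 8.45% of all named rows. In the highest 25% by signal, 52.7% of rows had a difference above 0, against 27 of the 37 members there (73%). All Fancg-/- samples lay above in 14.2% of these rows and in 8 of the 37 members, a larger share. All lay below in 12.6% of these rows and in 4 of the 37 members.

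**Figure D1:**
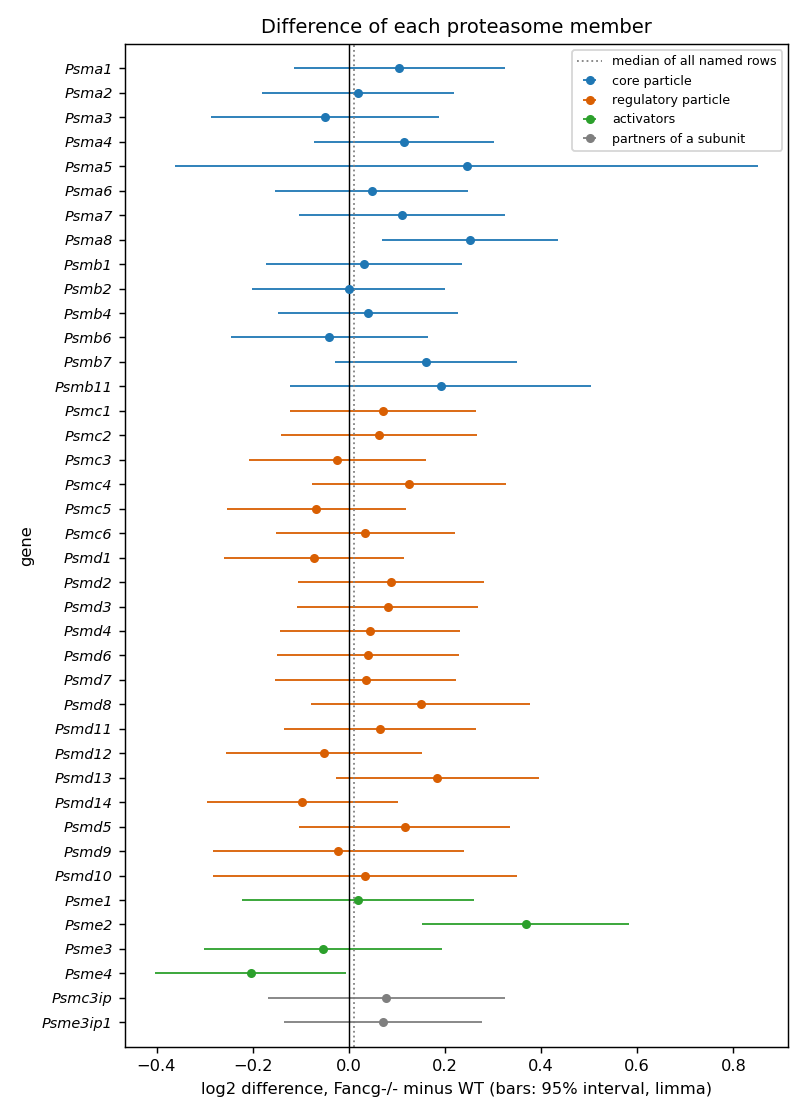
Log2 difference, Fancg-/- minus WT, of each of the 40 members (points) with the 95% interval from limma (bars), in the order of core particle, regulatory particle, activators and partners of a subunit. The intervals of *Psma8* and *Psme2* lay above 0 and that of *Psme4* below 0, before adjustment, and all others held 0.

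The samples differed slightly in the mean over the members, each member first centred on its mean of the 6 samples. This mean was 0.013, 0.052 and 0.022 in Fancg-/- replicates 1, 2 and 3, against -0.014, -0.02 and -0.053 in WT replicates 1, 2 and 3. The groups did not overlap in it, and the gap between the lowest Fancg-/- and the highest WT sample was less than the range within either group. Over the 37 members in the highest 25% by signal the groups did overlap. There the mean was -0.007 in Fancg-/- replicate 1 and 7.2e-04 in WT replicate 1. Fancg-/- replicate 2 was the highest sample in 15 of the 40 members and WT replicate 3 the lowest in 11. With the mean of the fetal Leydig, interstitial and Sertoli cell markers of each sample as a covariate in the fit (the somatic covariate), the median of the members was -5.28e-04. In the centred mean of its Leydig markers all Fancg-/- samples (-0.76 to -0.33) lay below all WT samples (0.33 to 0.68). The groups overlapped in the interstitial and Sertoli lists. The covariate was thus tied to genotype, and genotype and somatic signal cannot be told apart by this fit. No member had an unadjusted p under 0.05 in that fit, where 3.08% of all named rows were higher and 2.86% lower. The differences of *Psme2* (0.40), *Psma8* (0.25) and *Psme4* (-0.34) were about as large or larger there, with wider standard errors of 0.18, 0.154 and 0.154.

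**Figure D2:**
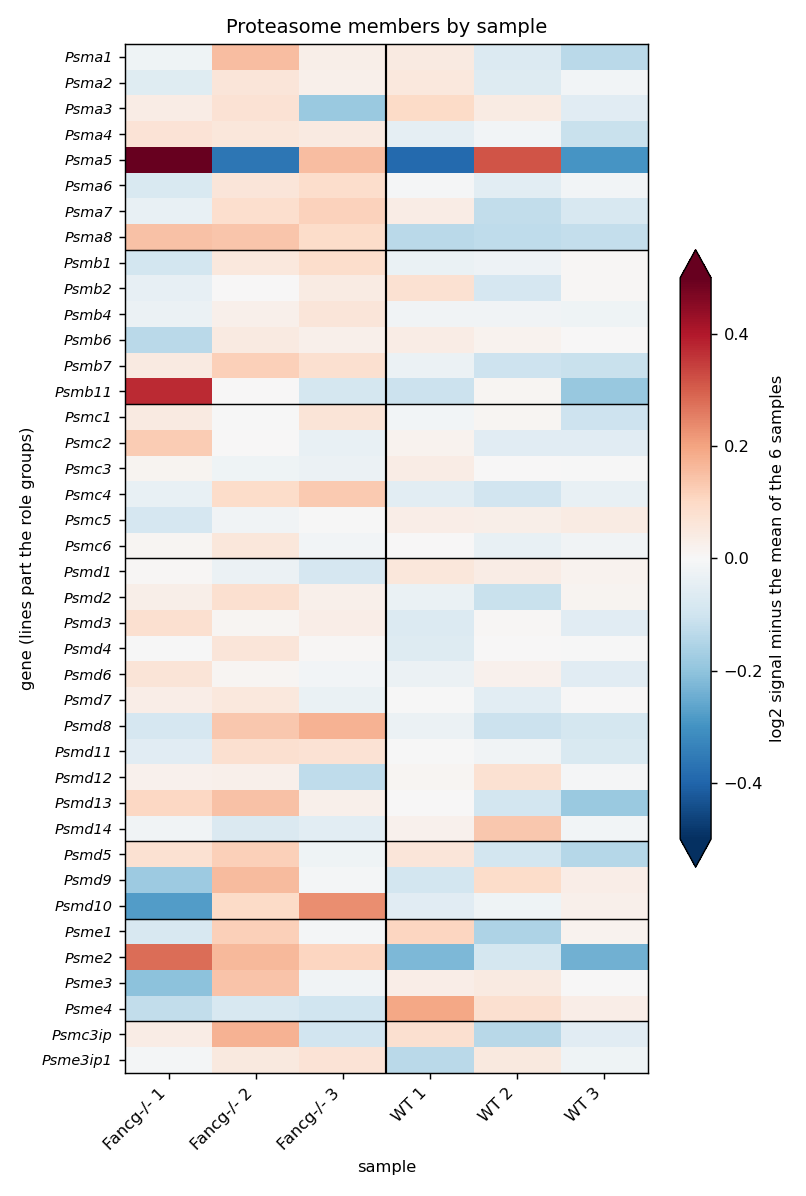
Log2 signal of the 40 members (rows, parted by role) in the 6 samples (columns, Fancg-/- left and WT right), as the difference from the mean of the 6 samples of that gene. Most cells are pale, *Psma8*, *Psme2* and *Psme4* change colour between the groups, and *Psma5* and *Psmb11* vary within them.

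In the core particle the median log2 difference was 0.076 over 14 members. Of these, 11 lay above 0 (78.6%, against 52.9% of all named rows). Only *Psma8* was higher at an unadjusted p under 0.05 (7.14%, against 6.23% of all named rows). The median was 0.047 without rows in the lowest 25% by signal, which removes *Psma5*. It was 0.044 without rows under the median by signal, which also removes *Psmb11*. The 8 genes of the alpha ring, which gates the barrel, had differences between -0.05 and 0.25. *Psma8* encodes the spermatocyte version of an alpha subunit that is otherwise made from *Psma7*. Its log2 signal was 8.16, 8.16 and 8.11 in Fancg-/- samples, against 7.89, 7.89 and 7.90 in WT samples. All Fancg-/- samples lay above all WT samples, and the values of each group lay close together. The log2 difference was 0.25 (a fold of 1.19), with a standard error of 0.079 (adjusted p = 0.28 from limma). It was 0.25 with the somatic covariate too, where its unadjusted p was 0.147.

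*Psma7* had 11.07, 11.19 and 11.22 in Fancg-/- samples and 11.14, 10.98 and 11.02 in WT samples, and the groups overlapped (log2 difference 0.11, standard error 0.092, adjusted p = 0.68 from limma). To compare the 2 genes within each array, the signal of *Psma7* was subtracted from that of *Psma8*. This log2 ratio differed by 0.14 between Fancg-/- and WT samples (exact two-sided permutation test, p = 0.2, where 0.1 is the smallest that 3 samples against 3 allow), so that *Psma8* was not shown to differ from *Psma7* in its change. The comparison was chosen after the values were seen.

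Of the other alpha subunits, *Psma4* also had every Fancg-/- sample (9.80, 9.79 and 9.78) above every WT sample (9.69, 9.72 and 9.62), with a log2 difference of 0.12 that did not pass (adjusted p = 0.62 from limma). *Psma5* lay in the lowest 25% of named rows by mean signal, with 3.93, 2.99 and 3.51 in Fancg-/- samples and 2.97, 3.67 and 3.06 in WT samples. Its groups overlapped and its standard error of 0.26 was the widest of all members, so that the array says little about this gene. The remaining alpha subunits, *Psma1*, *Psma2*, *Psma3* and *Psma6*, had differences between -0.05 and 0.11 and overlapping groups.

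The 6 measured genes of the beta ring had a median difference of 0.036 and none had an unadjusted p under 0.05. *Psmb7*, which encodes a protease subunit that cuts after basic residues, had the smallest p of the ring, with 10.99, 11.06 and 11.02 in Fancg-/- samples and 10.91, 10.84 and 10.83 in WT samples. Its groups did not overlap (log2 difference 0.16, standard error 0.082, adjusted p = 0.48 from limma). *Psmb6*, which encodes the protease subunit that cuts after acidic residues, had a difference of -0.04 (95% interval -0.25 to 0.16), on the other side of 0 from that of *Psmb7*. *Psmb1*, *Psmb2* and *Psmb4*, whose products have no active site, had differences between -2.0e-04 and 0.04.

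*Psmb11* encodes the beta subunit of the thymus proteasome. It had 3.94, 3.56 and 3.47 in Fancg-/- samples and 3.45, 3.57 and 3.37 in WT samples, where Fancg-/- replicate 1 stood above the other 5 samples and the groups overlapped. The log2 difference was 0.19 (standard error 0.13, adjusted p = 0.62 from limma), or 0.052 without Fancg-/- replicate 1.

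The immunoproteasome genes, left out of the members, encode beta subunits that take the place of those in the standard core when interferon is present. Among them *Psmb10*, the counterpart of *Psmb7*, had 6.99, 6.98 and 6.97 in Fancg-/- samples, against 6.73, 6.64 and 6.57 in WT samples, without overlap (log2 difference 0.33, standard error 0.086, adjusted p = 0.21 from limma). Within the arrays the log2 ratio of *Psmb10* to *Psmb7* differed by 0.17 (p = 0.1 by an exact two-sided permutation test, which can give no smaller p here), another comparison chosen after the values were seen. *Psmb8* had a log2 difference of 0.16 and *Psmb9* of -0.025, both with overlapping groups.

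**Figure D3:**
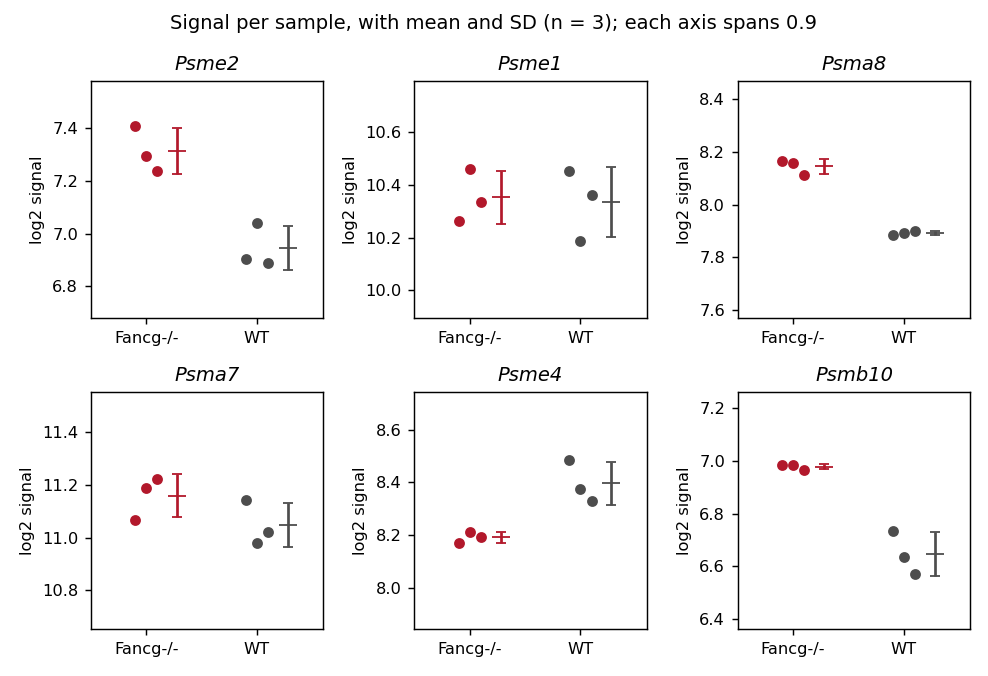
Log2 signal of *Psme2*, *Psme1*, *Psma8*, *Psma7*, *Psme4* and, outside the members, *Psmb10* in each sample (points; Fancg-/- left, WT right), with the mean and SD of the 3 samples beside them. *Psme2*, *Psma8* and *Psmb10* were higher in all Fancg-/- samples, *Psme4* was lower in all of them, and *Psme1* and *Psma7* overlapped.

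In the regulatory particle, with its assembly chaperones, the median log2 difference was 0.042 over 20 members, between -0.097 and 0.18. None had an unadjusted p under 0.05, where 6.23% of all named rows were higher and 6.17% lower. All 20 differed by less than 0.2 in size, and the 95% intervals of all 20 lay between -0.29 and 0.40. The 6 ATPases, which unfold the substrate, had differences between -0.068 and 0.13. *Psmc4* had the smallest p among them, with 10.06, 10.19 and 10.23 in Fancg-/- samples. The WT samples averaged 10.03 ± 0.031 (SD, n = 3) and reached 10.06, and the groups were parted only by the third decimal (log2 difference 0.13, standard error 0.087, adjusted p = 0.62 from limma). *Psmc5* went the other way by 0.068, with every Fancg-/- sample (10.87, 10.93 and 10.95) below every WT sample (10.98, 10.98 and 10.99).

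The 11 non-ATPase subunits had a median difference of 0.044. *Psmd13*, which encodes a subunit of the lid, had 8.90, 8.94 and 8.82 in Fancg-/- samples, against 8.80, 8.70 and 8.61 in WT samples, and the groups did not overlap. Its log2 difference was 0.18 (standard error 0.091, adjusted p = 0.47 from limma), the largest of the regulatory particle, and was -3.33e-04 with the somatic covariate. *Psmd2* and *Psmd3*, which encode scaffold subunits of the particle, were the other members of this group with all Fancg-/- samples above WT, with differences of 0.087 and 0.081. *Psmd1*, another large scaffold subunit, and *Psmd14*, the enzyme that removes ubiquitin chains from the substrate, had all Fancg-/- samples below WT, with differences of -0.073 and -0.097. The ubiquitin receptor gene *Psmd4* had a difference of 0.044 (95% interval -0.14 to 0.23).

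*Psmd5*, *Psmd9* and *Psmd10* encode chaperones that help to assemble the ATPase ring and are absent from the finished particle. *Psmd5* had the smallest p, with 8.15, 8.19 and 8.05 in Fancg-/- samples and 8.13, 7.98 and 7.93 in WT samples (log2 difference 0.12, standard error 0.095, adjusted p = 0.67 from limma), and its groups overlapped. *Psmd9* and *Psmd10* had differences of -0.022 and 0.034. In *Psmd10* the 3 Fancg-/- samples, at 7.57, 7.95 and 8.09, lay on either side of the WT samples, at 7.80, 7.83 and 7.88.

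The 4 activators had the widest range of differences of the role groups, between -0.20 and 0.37. *Psme1* and *Psme2* encode the 2 subunits of an activator ring that is induced by interferon-gamma. *Psme2* had 7.41, 7.29 and 7.24 in Fancg-/- samples, against 6.90, 7.04 and 6.89 in WT samples, and all Fancg-/- samples lay above all WT samples. Its log2 difference was 0.37 (standard error 0.093, 95% interval 0.15 to 0.58, adjusted p = 0.21 from limma), the largest among the members, and lay between 0.32 and 0.42 when each sample was left out in turn. *Psme1* had 10.26, 10.46 and 10.34 in Fancg-/- samples and 10.45, 10.19 and 10.36 in WT samples. Its groups overlapped, and its log2 difference was 0.019 (95% interval -0.22 to 0.26).

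Within the arrays the log2 ratio of *Psme2* to *Psme1* was -2.86, -3.17 and -3.10 in Fancg-/- samples and -3.55, -3.15 and -3.47 in WT samples. It differed by 0.35 between groups that overlapped (exact two-sided permutation test, p = 0.2). With 0.1 as the smallest possible p, the test cannot decide whether one partner changed without the other. This comparison was chosen after the values were seen. Whether probes of *Psme2* also match its copy *Psme2b* could not be read from the files, so that its value is uncertain in this respect. With the somatic covariate the difference of *Psme2* was 0.40 (unadjusted p = 0.0651 from limma) and that of *Psmb10* was 0.20 (unadjusted p = 0.234). Endothelial markers, which are not part of that covariate, had 7 of 10 higher in Fancg-/- samples, and their part in these values was not tested.

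*Psme3* encodes a nuclear activator. It had 9.85, 10.19 and 10.03 in Fancg-/- samples and 10.09, 10.10 and 10.06 in WT samples, with a difference of -0.054 and overlapping groups. *Psme4* encodes the activator that takes part in the removal of histones in spermatids. It had 8.17, 8.21 and 8.19 in Fancg-/- samples, against 8.49, 8.37 and 8.33 in WT samples, and every Fancg-/- sample lay below every WT sample. Its log2 difference was -0.20 (a fold of 0.868), with a standard error of 0.086 (adjusted p = 0.39 from limma), and -0.34 with the somatic covariate. Its unadjusted p stayed under 0.05 in no fit that left out 1 sample, and the difference lay between -0.24 and -0.16 in these fits. *Psma8* and *Psme4*, both named above for spermatogenesis, had differences in opposite directions, and neither passed the adjustment.

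The 2 partners of a subunit had small differences. *Psmc3ip* encodes a protein needed in meiotic recombination, and had 7.98, 8.12 and 7.85 in Fancg-/- samples and 8.02, 7.81 and 7.89 in WT samples. Its groups overlapped (log2 difference 0.078, standard error 0.11, adjusted p = 0.82 from limma). *Psme3ip1*, which encodes a binding partner of the *Psme3* activator, had 9.35, 9.41 and 9.43 in Fancg-/- samples and 9.22, 9.41 and 9.34 in WT samples, also with overlap (log2 difference 0.071, standard error 0.089, adjusted p = 0.80 from limma).

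Genes that act around the proteasome were read in the same fit. Of 17 genes for assembly and associated factors, 15 had a row. None was called over all genes. At an unadjusted p under 0.05, 2 were higher, *Psmg3* and *Psmf1* (13.3% of 15, against 6.23% of all named rows). By the same rule 1 was lower, *Ecpas* (6.67%, against 6.17%). The median difference of the list was 0.036. *Psmg3*, which encodes a chaperone that assembles the alpha ring, had 7.54, 7.69 and 7.6 in Fancg-/- samples, against 7.27, 7.20 and 7.29 in WT samples, without overlap (log2 difference 0.35, standard error 0.087, adjusted p = 0.20 from limma). The other measured chaperones of the core, *Psmg1*, *Psmg2*, *Psmg4* and *Pomp*, had differences of -0.043, 0.10, 0.34 and 0.15. *Psmf1*, which encodes a protein that binds and inhibits the core particle in vitro, had a difference of 0.38 (standard error 0.16, adjusted p = 0.40 from limma) between groups that overlapped, 0.22 without WT replicate 3 (unadjusted p = 0.16) and -0.11 with the somatic covariate. *Ecpas*, which encodes a scaffold that holds the core and the regulatory particle together, had 7.97, 7.90 and 7.71 in Fancg-/- samples, against 8.05, 8.15 and 8.09 in WT samples (log2 difference -0.24, standard error 0.099, adjusted p = 0.39 from limma). The difference of *Ecpas* lay between -0.29 and -0.16 when each sample was left out, and its unadjusted p was under 0.05 only without Fancg-/- replicate 1.

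Of 14 ubiquitin genes, E1 enzymes and shuttle factors, 12 had a row, and their median difference was 0.046. At an unadjusted p under 0.05, 1 of the 12 was higher (8.33%, against 6.23% of all named rows) and 0 were lower (against 6.17%). *Ubqln4*, which encodes a shuttle that carries ubiquitinated proteins to the proteasome, was the 1 gene of this list with an unadjusted p under 0.05, with 8.40, 8.11 and 8.17 in Fancg-/- samples, against 7.99, 7.99 and 7.61 in WT samples (log2 difference 0.36, standard error 0.13, adjusted p = 0.35 from limma). Its difference was 0.24 without WT replicate 3 (unadjusted p = 0.0965 from limma), 0.28 without Fancg-/- replicate 1 (unadjusted p = 0.0933) and 0.20 with the somatic covariate (unadjusted p = 0.451). *Uba1*, which encodes the main ubiquitin-activating enzyme, had a difference of -0.02.

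The 11 regulators of proteasome transcription had a median difference of 0.021, and none had an unadjusted p under 0.05. *Nfe2l1*, which encodes NRF1, had 9.10, 9.15 and 9.08 in Fancg-/- samples and 9.06, 9.06 and 9.15 in WT samples (log2 difference 0.019, 95% interval -0.17 to 0.21). *Ddi2*, the protease that releases active NRF1, had the smallest p of the list, with a difference of 0.25 (standard error 0.11, adjusted p = 0.42 from limma) between groups that overlapped. *Mafg*, which encodes a small MAF partner of NRF1 and NRF2, had all Fancg-/- samples (7.77, 7.76 and 7.64) below all WT samples (7.85, 7.90 and 8.02), with a difference of -0.20 (adjusted p = 0.44 from limma). The activity of NRF1 is set largely at the protein level, which arrays do not measure.

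**Figure D4:**
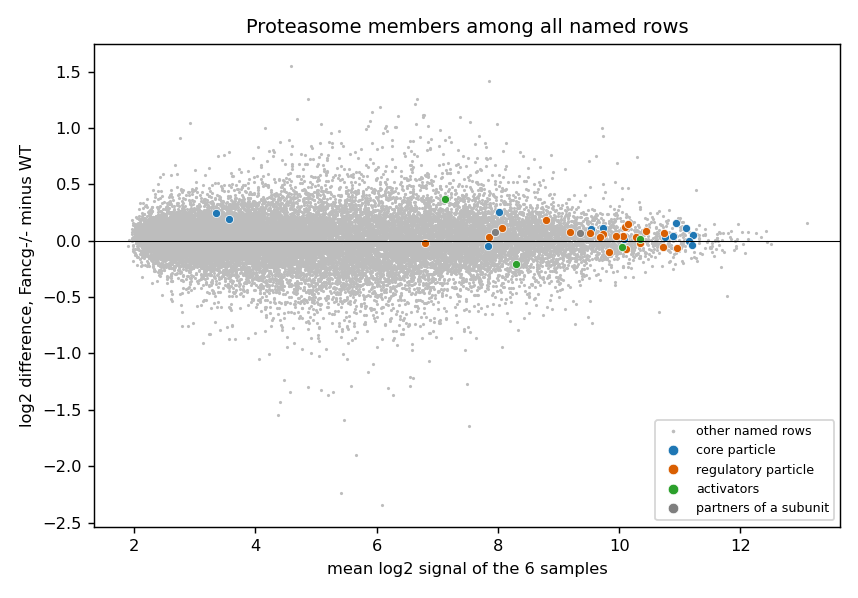
Log2 difference, Fancg-/- minus WT, against the mean log2 signal of the 6 samples, for the 40 members (coloured by particle) and all other named rows (grey). 37 members lay in the highest 25% of named rows by signal, and the members lay between -0.20 and 0.37, within the spread of the other rows.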

How the data were processed

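PGCs were compared as 3 Fancg-/- and 3 WT samples, the groups and replicate numbers being those of the sample titles. The authors deposited log2 values with 1 row per Entrez gene, made by RMA, and the submitters' processing notes name RMA and Partek. The sources used here give no versions, probe set definition or genome build. RMA sets all arrays to one distribution, so that a change of all genes together would not show. Median log2 values per sample lay between 4.68 and 4.75 and correlations between samples between 0.989 and 0.994. Precision is limited by how many arrays there were.

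The table held 24479 rows. RefSeq symbols (GRCm38.p6) named 23712 of them and others were named through the platform annotation, in which 23281 rows had 1 symbol and none had several. The 642 rows with no name were left out of the main fit. All 23837 named rows were fitted together by lmFit and eBayes of limma 3.58.1 (R 4.3.3) as Fancg-/- minus WT, with no block, and p-values were adjusted by Benjamini-Hochberg over these rows. Genes named with their values are members with an unadjusted p under 0.05, *Psma8* and *Psmb11*, the partners of a subunit, the member with the smallest p of each other role group, and up to 4 genes of each related list. Others named were chosen after their values were seen. The members, lists and tests were chosen with earlier results of these data known. Alternatives were other tests, scalings and filters, a replicate block, a somatic marker covariate and leaving out each sample.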

Additional observations from a re-analysis of the deposited data

How the results depend on the processing

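No member was called at an adjusted p under 0.05 in any alternative, with 0 also under the replicate block and without each sample. The count of members higher at an unadjusted p under 0.05 was 5 of 40 by Student's t-test (5.33% of all named rows), 4 with an intensity trend and a robust prior (6.72%), 0 with the somatic covariate (3.08%) and 2 to 3 without each sample. The count of those lower, 1 in the fit reported, was 0 with array weights, with equal array medians, with the somatic covariate, with the replicate block and without each sample (0 to 0). The median difference of the members was 0.067 with equal array medians, which moved the median of all named rows to 0.032 as well, against 0.011 in the fit reported, -5.28e-04 with the somatic covariate and 0.033 to 0.064 without each sample. That of the core particle was 0.047 when rows in the lowest 25% by signal were left out, which removes *Psma5*, 0.044 without rows under the median by signal, which also removes *Psmb11*, 0.0197 with the somatic covariate and 0.046 to 0.085 without each sample. That of the regulatory particle was -5.28e-04 with the somatic covariate and 0.032 to 0.059 without each sample. The covariate, which was tied to genotype, also turned the differences of *Psmc3ip* (-0.16), *Psmd13* (-3.33e-04), *Psmd5* (-0.093) and *Psmf1* (-0.11), and the cause was not tested. With the replicate block the medians were those reported, 0.046 for all members, and 2 members were higher. Same-numbered samples did not deviate together over all named rows (correlations -0.14, -0.11 and 0.03), so that the numbers were not taken to pair the samples. Without the partners of a subunit the counts were 2 higher and 1 lower of 38.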
